A study of Mus musculus with 6 samples.

Results

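The 10 carbonic anhydrase genes Car2, Car3, Car4, Car5b, Car8, Car9, Car12, Car13, Car14 and Car15 were followed in sorted mouse kidney cells after ischemia. They were chosen by gene name from the 37583 genes of the deposited table, and all 10 were found. Of these 10 genes, Car13 rose 9.30-fold and Car5b 1.503-fold after ischemia-reperfusion injury, and no change was called for Car2, the most abundant member. RNA was sequenced from 6 libraries. The 3 injury (IRI) libraries came from cells isolated 2 h after renal ischemia followed by reperfusion, in which the blood supply is stopped and then restored, and the 3 sham libraries from cells isolated 2 h after a sham operation. All mice, sham included, were 12 weeks old and labelled as B1 VATPase EGFP transgenics, whose green protein is described as specific to intercalated cells, and EGFP+ cells of the medulla were sorted in a double round. Each library pooled 4 kidneys of 2 mice, so mice within a library cannot be separated, and p-values measure the spread between these pools.

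Carbonic anhydrases convert carbon dioxide and water to bicarbonate and a proton, and back. In the collecting duct the reaction feeds the proton pump and the bicarbonate exchangers of intercalated cells, which secrete acid or base into the urine. Members differ mainly in where the enzyme sits: Car2, Car3 and Car13 lie in the cytosol, Car5b in mitochondria, and Car4, Car9, Car12, Car14 and Car15 are held on the outer face of membranes. Car8 lacks the zinc-binding site that catalysis needs and binds the inositol trisphosphate receptor instead.

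The libraries held 22478011 to 24245330 reads counted in genes after IRI and 17421669 to 23061108 in sham. Levels within a gene are given as CPM, the reads of the gene scaled to a common library size by TMM, and levels between genes as the deposited RPKM, which also divides by gene length. One label field gives the tissue as epididymis, in contrast to the renal medulla named elsewhere, and the genotype field places EGFP under CX3CR1 and not the B1 gene, so the promoter is not settled by the labels. Of 7 epididymis markers, Lcn5, Lcn8, Spag11b and Defb48 had 0 reads in every library, and the list summed to 0.0483 to 0.449 CPM after IRI and 0.118 to 0.326 CPM in sham. The 6 markers shared by intercalated cells summed to 10808 to 12138 CPM after IRI and 10558 to 14052 CPM in sham. Of these shared markers 3 were called lower, against 21.2% of all genes tested, 0 were called higher and 3 were not called. Markers of principal cells, the neighbours of intercalated cells in the collecting duct (7 genes, 6 above the filter on low counts), were also abundant. They summed to 5865 to 11548 CPM after IRI and 11711 to 12686 CPM in sham. These sums did not overlap, with IRI below. A lack of overlap with IRI below held for 27.2% of all genes tested, and in either direction for 56.4%. Of the 6 principal cell markers tested, 1 was called lower, against 21.2% of all genes tested, and 5 were not called. In a fit with the replicate number as a block, 3 of the 6 were called lower, against 22.3% of all genes tested. Fewer cells of a type and less RNA per cell cannot be told apart in such bulk samples.

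Transcripts of the family were dominated by Car2 in every library. The RPKM of Car2 was 4972, 6025 and 4871 in IRI replicates 1, 2 and 3, against 4719, 5703 and 5666 in sham replicates 1, 2 and 3. Car2 made up 94.1% to 95.5% of the summed RPKM of the 10 members after IRI and 93.5% to 94.1% in sham, and it ranked 6 to 8 among all genes by RPKM after IRI and 5 to 7 in sham. Car12, a transmembrane enzyme with its active site outside the cell, followed at 216, 293 and 279 RPKM after IRI and 299.8, 379 and 339 RPKM in sham. The other 8 members together made up 0.287% to 0.462% after IRI and 0.265% to 0.317% in sham. By mean RPKM the order after IRI was Car2, Car12, Car5b, Car13, Car8, Car4, Car15, Car3, Car14 and Car9. The sample ranges of Car2, Car12 and Car5b did not overlap their next neighbour in that order, whereas Car13 overlapped Car8, Car8 overlapped Car4 and Car4 overlapped Car15, as Car3 did Car14 and Car14 did Car9. In sham the order was Car2, Car12, Car4, Car5b, Car8, Car15, Car13, Car3, Car9 and Car14, with Car4 overlapping Car5b, and each of the members from Car13 down overlapping the next. Car13 was in place 4 after IRI and in place 7 in sham, at 4.58 ± 0.819 RPKM after IRI and 0.512 ± 0.293 RPKM in sham (SD, n = 3 each).

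**Figure D1:**
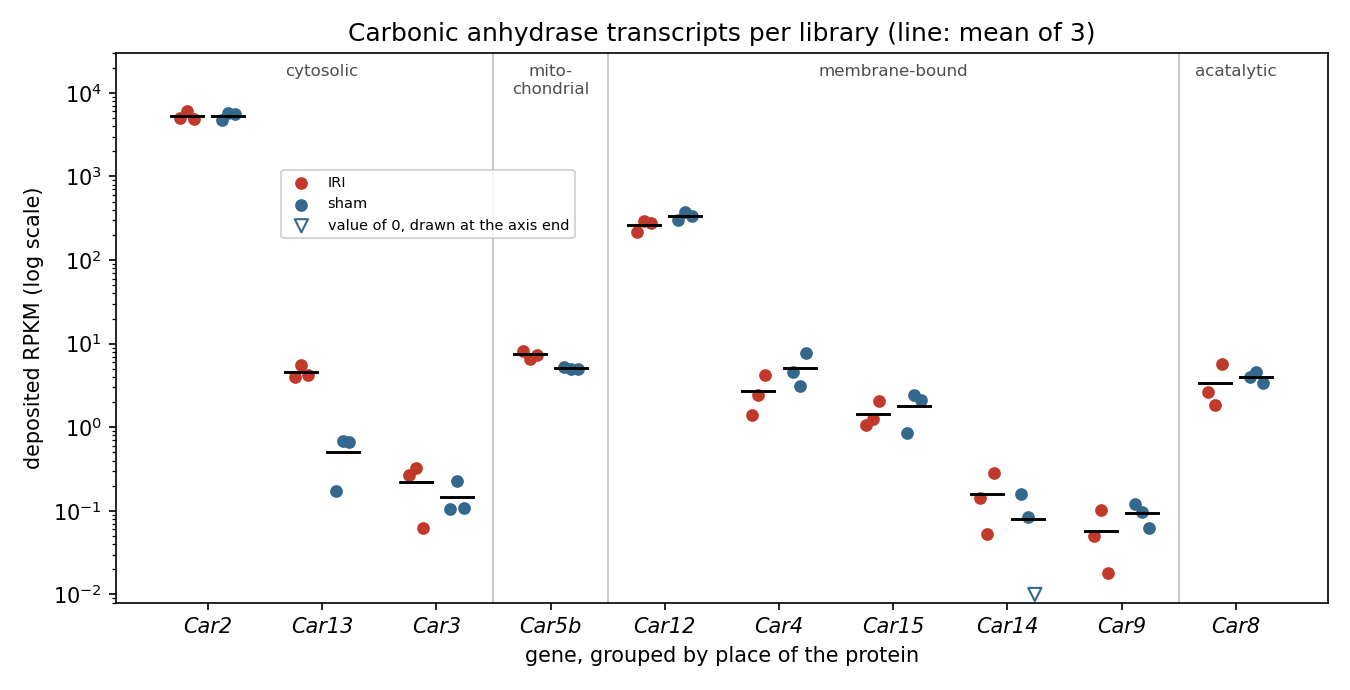
Deposited RPKM of the 10 carbonic anhydrases on a log axis, with 1 point per library (IRI in red, left of sham in blue) and a line at the mean of each group. Car2 lay at 4719 to 6025 RPKM in all 6 libraries, and of the lower members Car13 was the one whose groups stood furthest apart.

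Changes were tested with edgeR's quasi-likelihood test on the counts of 13881 genes that passed a filter on low counts, with Benjamini-Hochberg adjustment over those genes and a call at an adjusted p under 0.05. Of the 10 members, 7 passed the filter (Car2, Car4, Car5b, Car8, Car12, Car13 and Car15), and 3 (Car3, Car9 and Car14) did not. Among the 7 tested, 2 were called higher, against 24.2% of all genes tested, and 0 were called lower, against 21.2% of all genes tested, so 2 were called in either direction, against 45.5% of all genes tested. At an unadjusted p under 0.05, edgeR placed 0 members lower, DESeq2 2 and limma-voom 1, and after adjustment each of these tools called 0. The replicate numbers of the labels recur in both groups. Libraries of equal number deviated together weakly (correlations 0.20, 0.13 and 0.17, against -0.134 to -0.00419 for unequal numbers). Deviations were taken from each group's mean and cancel within a group, so positive values at equal numbers force negative ones at unequal numbers. The contrast is therefore not separate evidence of pairing. Pairing was inferred from these values and is not established. With the replicate number as a block, 2 members were called higher, against 24.3% of genes, and 2 (Car12 and Car4) were called lower, against 22.3% of genes. The median log2 fold change was -0.19 over the 7 tested members and 0.00 over all genes tested.

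Of the cytosolic members, Car13 was higher in every IRI library. Car13, an enzyme of many tissues with moderate activity, had 205, 281 and 204 reads in IRI replicates 1, 2 and 3, against 10, 37 and 28 reads in sham replicates 1, 2 and 3. These correspond to 9.21, 12.9 and 9.85 CPM after IRI and 0.393, 1.56 and 1.52 CPM in sham. Every IRI library lay above every sham library, which held for 29.2% of all genes tested, and for 56.4% the groups did not overlap in either direction. The log2 fold change was 3.22 ± 0.43 (SE; 95% interval 2.22 to 4.21), with an adjusted p of 0.000661 by edgeR. Within pairs of equal replicate number the IRI library was 23.4, 8.25 and 6.47 times its sham library. The fold was smaller on the log2(RPKM + 1) scale, which understates changes of low genes (log2 1.89 by limma, adjusted p = 0.000223).

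Car13 lies in a cluster of genes for the cytosolic enzymes. In GENCODE M21 on GRCm38 the order of protein-coding genes is Car13, Car1, Car3 and Car2, of which Car13 and Car2 could be tested. Car1, the red cell enzyme, had 0 reads in all 6 libraries. Car3, an enzyme of low activity known from muscle and fat, had 9, 11 and 2 reads after IRI and 4, 8 and 3 reads in sham, below the filter. The ratio of its summed reads was 1.53, with an exact 95% interval of 0.758 to 3.17 that covers counting error only, so no difference was detectable at this depth. Of the 6 muscle and fat markers, Myh4, Adipoq, Plin1 and Cfd had 0 reads in every library. The list summed to 2.07, 0.0458 and 0.628 CPM in IRI replicates 1, 2 and 3. In sham replicates 1, 2 and 3 it summed to 0.0786, 0.169 and 0.0544 CPM. The part of muscle and fat in the Car3 reads was not tested. Car2 had a log2 fold change of 0.02 ± 0.14 (adjusted p = 0.934), with a 95% interval of -0.31 to 0.34, its groups overlapped, and its sign changed with the scaling. Leukocyte markers (5 genes) summed to 130, 152 and 254 CPM in IRI replicates 1, 2 and 3 and 50.7, 91.8 and 253 CPM in sham replicates 1, 2 and 3. Of these 5, all tested, 2 were called higher, against 24.2% of all genes tested, 0 were lower and 3 were not called. Their median log2 fold change was 0.77. Red cell markers (6 genes, none above the filter) summed to 0.580 to 4.85 CPM after IRI and 0.127 to 0.544 CPM in sham, and the part of either cell type in the rise of Car13 was not tested.

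Car5b, the mitochondrial enzyme that supplies bicarbonate to carboxylases there, rose modestly and with little spread. It had 52.7, 42.9 and 48.0 CPM in IRI replicates 1, 2 and 3, against 32.8, 31.0 and 31.8 CPM in sham replicates 1, 2 and 3. All 3 IRI libraries lay above all 3 sham libraries, which held for 29.2% of all genes tested. The log2 fold change was 0.59 ± 0.11 (adjusted p = 0.00282; 95% interval 0.33 to 0.84), and within pairs the IRI library was 1.61, 1.39 and 1.51 times its sham library. Its promoter window is shown because Car5b is the higher-called member with an entry in the RefSeq promoter table, which spans 250 bases before to 50 after the start, and Car9 is shown beside it as the member best known as a hypoxia target. Of the 10 members 6 had an entry (Car4, Car5b, Car9, Car12, Car14 and Car15), each with 1 start. Capitals mark matches on either strand to the hypoxia response cores ACGTG and GCGTG and to the AP-1 motif TGANTCA.
Car5b, GRCm38.p6, chrX:164027961-164028260, minus strand: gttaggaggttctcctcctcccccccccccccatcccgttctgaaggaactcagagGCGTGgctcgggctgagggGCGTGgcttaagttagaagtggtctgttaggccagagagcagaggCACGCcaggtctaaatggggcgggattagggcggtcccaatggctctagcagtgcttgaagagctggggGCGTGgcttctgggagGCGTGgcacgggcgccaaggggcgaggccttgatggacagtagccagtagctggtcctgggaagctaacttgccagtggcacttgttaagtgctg
Car9, GRCm38.p6, chr4:43506776-43507075, plus strand: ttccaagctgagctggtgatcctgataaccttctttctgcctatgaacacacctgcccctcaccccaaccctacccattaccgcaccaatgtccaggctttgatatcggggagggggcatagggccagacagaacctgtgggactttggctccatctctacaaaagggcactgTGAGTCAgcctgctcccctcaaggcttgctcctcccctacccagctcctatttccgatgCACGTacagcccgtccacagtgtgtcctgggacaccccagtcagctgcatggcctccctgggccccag

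The Car5b window held 5 GCGTG matches, 4 of them on the gene's strand, and no ACGTG match. The Car9 window held 1 ACGTG match, on the other strand, 18 bases before the start, and 1 TGANTCA match 77 bases before the start. No match overlapped another. Among the 32851 promoter windows of the table, 19.6% held ACGTG, 32.4% held GCGTG, 43.8% held either core and 7.81% held TGANTCA. The Car4 and Car14 windows held ACGTG too, and those of Car12 and Car15 held neither core. The C/EBP motif TTNCNNAA, present in 40.7% of all windows, was found in the Car4 window alone among the 6. These are letter matches, and no binding was measured.

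Car9 RNA was close to 0 in both groups. It had 3, 6 and 1 reads after IRI and 8, 6 and 3 reads in sham. The summed reads had a ratio of 0.613 (exact 95% interval 0.251 to 1.42, counting error only). An antisense gene, Gm12454, overlaps Car9 in GENCODE M21, and the library kit named in the labels does not mark strand, so these reads are uncertain. Of the 23 tested genes on a list of 24 hypoxia targets, 10 were higher, against 24.2% of all genes tested, 6 were lower, against 21.2%, and 7 were not called (median log2 0.24). The glycolytic enzyme Hk2 (log2 4.00 ± 0.62, adjusted p = 0.00151), the prolyl hydroxylase Egln3 (log2 3.66 ± 0.41, adjusted p = 0.000188), Pfkfb4 (log2 2.45 ± 0.33, adjusted p = 0.000509) and the glucose transporter Slc2a1 (log2 1.77 ± 0.25, adjusted p = 0.00118) were those with the largest changes. Vegfa, the endothelial growth factor, fell to 66.7 ± 7.52 CPM after IRI, against 109.9 ± 4.63 CPM in sham (SD, n = 3 each; log2 -0.72 ± 0.11, adjusted p = 0.0008). It was picked after its values were seen, as an example of the lower genes.

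Car12 was lower after IRI in each pair of libraries, but was called only in some fits. Its levels were 990, 1367 and 1303 CPM in IRI replicates 1, 2 and 3, against 1355, 1709 and 1540 CPM in sham replicates 1, 2 and 3. IRI replicate 2 lay just above sham replicate 1, so the groups overlapped in CPM, whereas the deposited RPKM of the groups did not overlap. In CPM, IRI lay below sham without overlap for 27.2% of all genes tested, and this share was not computed for RPKM. The log2 fold change was -0.33 ± 0.15 (adjusted p = 0.104; 95% interval -0.67 to 0.01). Within pairs the IRI library was 0.730, 0.7998 and 0.846 times its sham library, and with the replicate block Car12 was called lower (log2 -0.34 ± 0.09, adjusted p = 0.0211). Upper-quartile scaling (log2 -0.45, adjusted p = 0.0345), scaling by library size only (log2 -0.54, adjusted p = 0.00635) and a fit with no filter on low counts (log2 -0.37, adjusted p = 0.0397) also called it lower. The ratio of Car2 to Car12 RPKM, which does not depend on library scaling, was 23.1, 20.5 and 17.5 in IRI replicates 1, 2 and 3 and 15.7, 15.0 and 16.7 in sham replicates 1, 2 and 3. The groups did not overlap in this ratio, which was chosen after its values were seen and was not tested. Principal cell markers summed to 11548, 5865 and 8720 CPM in IRI replicates 1, 2 and 3 and to 12686, 11711 and 11989 CPM in sham replicates 1, 2 and 3, and their part in the Car12 values was not tested.

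The other membrane-bound members were scarce. Car4, which is anchored by a lipid on the cell surface and known from the proximal tubule and thick ascending limb, had 3.10, 5.41 and 9.56 CPM after IRI, against 10.02, 6.79 and 17.0 CPM in sham replicates 1, 2 and 3. The groups overlapped, and the log2 fold change was -0.90 ± 0.47 (adjusted p = 0.161). Within pairs the IRI library was 0.309, 0.796 and 0.562 times its sham library, and with the replicate block Car4 was called lower (log2 -0.94 ± 0.27, adjusted p = 0.0267). It was also called without IRI replicate 3 (log2 -1.40, adjusted p = 0.0443). Thick ascending limb markers (4 genes) summed to 756, 827 and 1226 CPM in IRI replicates 1, 2 and 3 and 1200, 826 and 1300 CPM in sham replicates 1, 2 and 3, in the same order as Car4 within each group. Proximal tubule markers (10 genes) summed to 3.25 to 8.55 CPM after IRI and 4.89 to 8.88 CPM in sham, and endothelial markers (5 genes) to 5.64 to 14.1 CPM after IRI and 0.511 to 5.38 CPM in sham. The part of these cells in the Car4 values was not tested.

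Car15, a lipid-anchored enzyme of mouse kidney, had 1.66, 1.97 and 3.19 CPM after IRI and 1.30, 3.71 and 3.21 CPM in sham. Its groups overlapped, with a log2 fold change of -0.26 ± 0.43 (adjusted p = 0.645; 95% interval -1.23 to 0.70). GENCODE M21 places Gm20518 over Car15 on the same strand, so reads of Car15 may be split with it. Car14, a transmembrane enzyme, had 8, 3 and 15 reads after IRI and 10, 5 and 0 reads in sham. The ratio of its summed reads was 1.81 (exact 95% interval 0.922 to 3.67, counting error only), and Aph1a overlaps it on the opposite strand. Car8, the acatalytic member, had 10.3, 7.29 and 22.2 CPM in IRI replicates 1, 2 and 3, against 15.1, 17.2 and 12.8 CPM in sham replicates 1, 2 and 3. IRI replicate 3 was the highest of all 6 libraries and the other 2 IRI libraries the lowest, and the log2 fold change was -0.19 ± 0.39 (adjusted p = 0.728). Without IRI replicate 3, Car8 was called lower (log2 -0.77, adjusted p = 0.0204). Urothelial markers (4 genes) summed to 50.4 CPM in that library, to 5.03 and 8.29 CPM in IRI replicates 1 and 2 and to 4.05 to 11.3 CPM in sham, and their part in Car8 was not tested.

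**Figure D2:**
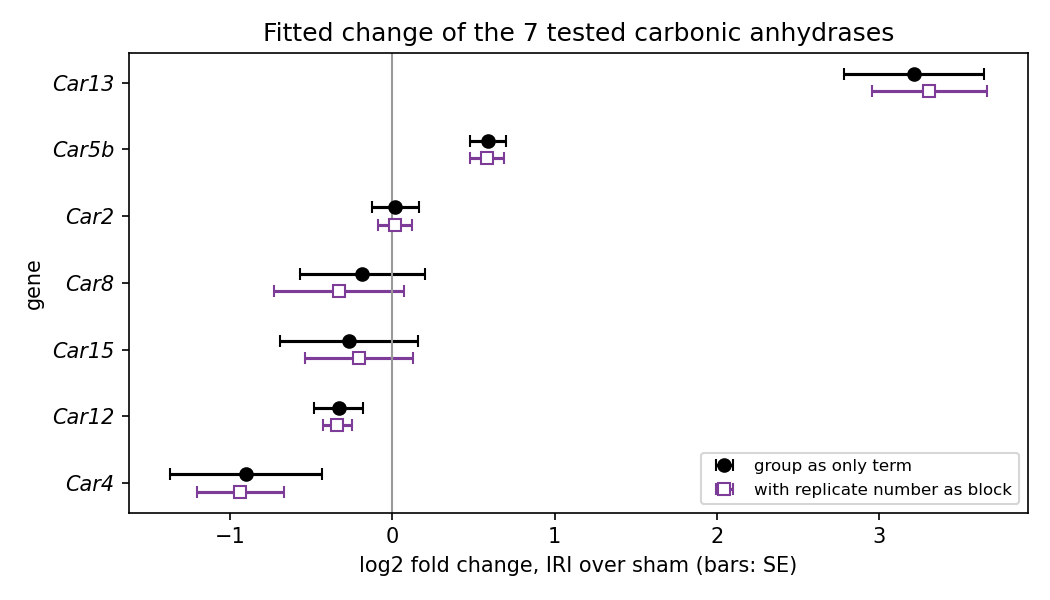
Fitted log2 fold changes (IRI over sham, horizontal axis) of the 7 tested carbonic anhydrases with the group as the only term (filled) and with the replicate number as a block (open), with SE as bars. Car13 and Car5b lay to the right of 0 in both fits, and the bars of Car12 and Car4 were shorter with the block.

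**Figure D3:**
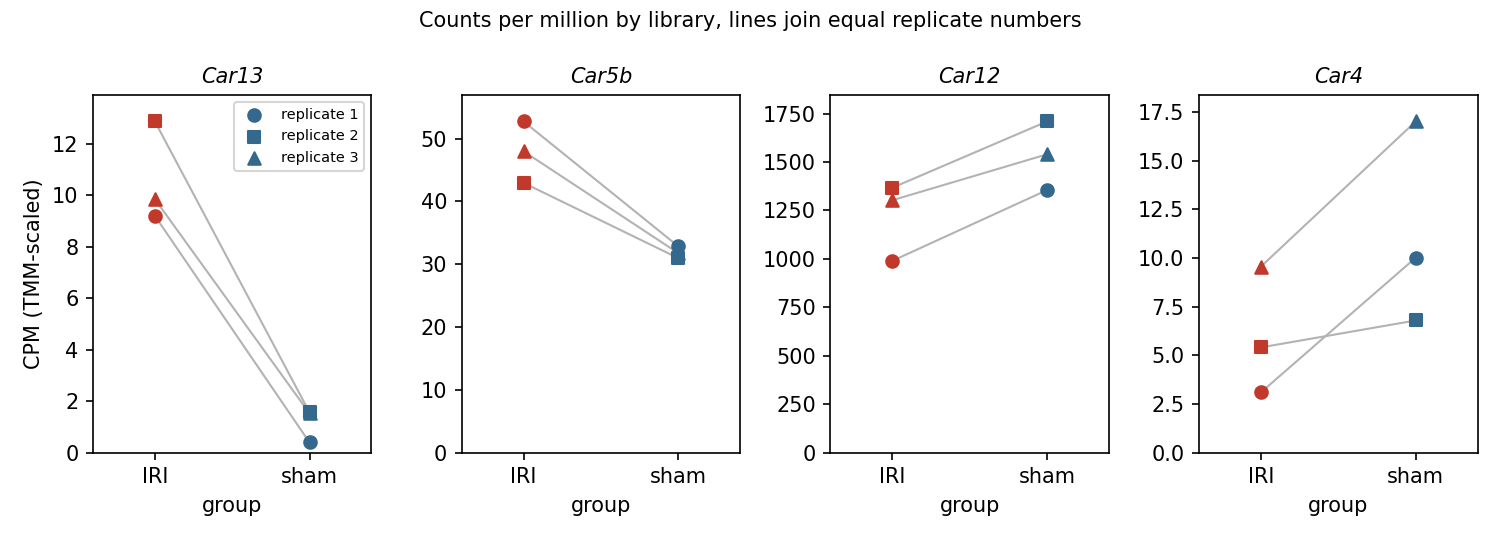
TMM-scaled CPM (vertical axes, from 0) of Car13, Car5b, Car12 and Car4 in IRI libraries on the left and sham libraries on the right, with grey lines joining libraries of equal replicate number. In all 3 pairs the IRI library was the higher for Car13 and Car5b and the lower for Car12 and Car4.

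Summed by place in the cell, RPKM of the membrane-bound members was 267 ± 42.6 after IRI and 346.5 ± 39.8 in sham (SD, n = 3 each), nearly all of it Car12. The cytosolic members summed to 5294 ± 640.2 RPKM after IRI and 5363 ± 558 RPKM in sham, nearly all of it Car2. Within the 8 members other than Car2 and Car12, Car13 made up 23.5% ± 6.44 of the RPKM after IRI and 2.97% ± 1.63 in sham, and Car4 12.9% ± 4.97 after IRI and 30.0% ± 10.6 in sham. These sums and shares were not tested.

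The remaining genes of the family were at low levels, summing to 6.60 to 9.76 CPM after IRI and 9.32 to 11.3 CPM in sham. Of 8 such genes, Car1 and Car5a, the mitochondrial enzyme of liver, had 0 reads in every library, and 3 passed the filter. Car7, a cytosolic enzyme known from brain, was the 1 called: it had 6, 17 and 5 reads after IRI and 47, 25 and 24 reads in sham replicates 1, 2 and 3, a log2 fold change of -1.69 ± 0.50 (adjusted p = 0.0231). All 3 IRI libraries lay below all 3 sham libraries, which held for 27.2% of all genes tested. The call was lost without IRI replicate 1, IRI replicate 3 or sham replicate 1 (adjusted p = 0.0786, 0.0742 and 0.0787). No change was called for the acatalytic Car11 (log2 -0.32 ± 0.27, adjusted p = 0.365) or for the receptor phosphatase Ptprg, whose outer part resembles a carbonic anhydrase (log2 -0.32 ± 0.25, adjusted p = 0.328).

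Bicarbonate and the proton, the products of the reaction, are moved by transporters and by the proton pump. Of 15 tested bicarbonate and anion transporters of the Slc4 and Slc26 families, 3 were higher, against 24.2% of all genes tested, and 3 were lower, against 21.2%, while 9 were not called. With the replicate block 4 were higher, against 24.3% of all genes tested, and 6 were lower, against 22.3%. The anion exchanger Slc26a1 rose (log2 2.44 ± 0.35, adjusted p = 0.0008), as did the sodium-bicarbonate cotransporter Slc4a7 (log2 1.62 ± 0.28, adjusted p = 0.00167) and Slc4a11 (log2 1.60 ± 0.35, adjusted p = 0.00719). The exchangers Slc26a6 (log2 -1.20 ± 0.40, adjusted p = 0.0355) and Slc4a3 (log2 -0.54 ± 0.15, adjusted p = 0.0145) and the cotransporter Slc4a5 (log2 -1.001 ± 0.25, adjusted p = 0.0113) fell. Slc26a6 kept a call in 1 of the 6 fits that left out a library (adjusted p up to 0.1003), and Slc4a3 lost its call without sham replicate 3 (adjusted p = 0.0513). The list's median log2 value was -0.03.

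Of 30 tested genes of proton transport, 5 were higher, 6 were lower and 19 were not called (median log2 -0.06), against 24.2% higher and 21.2% lower of all genes tested. With library size alone, 14 were lower, and so were 4337 of all 13881 genes tested, against 2948 with TMM scaling. The sodium-proton exchangers Slc9a4 (log2 1.62 ± 0.18, adjusted p = 0.000169) and Slc9a2 (log2 0.73 ± 0.10, adjusted p = 0.000513) rose, as did the pump subunits Atp6v0a1 (log2 1.59 ± 0.11, adjusted p = 1.94e-05), Tcirg1 (log2 1.03 ± 0.22, adjusted p = 0.00479) and Atp6v1b2 (log2 0.39 ± 0.12, adjusted p = 0.0233). The call of Atp6v1b2 was lost under scaling by library size only (log2 0.20, adjusted p = 0.194), under upper-quartile scaling (log2 0.27, adjusted p = 0.087) and in 4 of the 6 fits that left out a library (without IRI replicate 1 or 2 or sham replicate 1 or 3, adjusted p up to 0.0962). The pump subunit Atp6v1c2, enriched in kidney, had the largest decrease among the called genes (log2 -0.87 ± 0.23, adjusted p = 0.0165).

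Among 5 tested gas channels and acid-base sensors, 2 were higher and 2 were lower (median log2 -0.30), against 24.2% higher and 21.2% lower of all genes tested. The proton-sensing receptor Gpr4 had 73, 96 and 29 reads after IRI and 1, 6 and 9 reads in sham (log2 3.59 ± 0.70, adjusted p = 0.00367). Gpr4 is known from endothelial cells. The 5 endothelial markers summed to 5.64 to 14.1 CPM after IRI and 0.511 to 5.38 CPM in sham. The lowest IRI sum lay just above the highest sham sum. A lack of overlap with IRI above held for 29.2% of all genes tested. Of the 3 endothelial markers tested, 0 were called in either direction, with or without the replicate block. The median log2 fold change of these 3 was 1.502, on the side of higher levels after IRI. The part of endothelial cells in the rise of Gpr4 was not tested. The kinase Ptk2b rose 5.03-fold (log2 2.33 ± 0.20, adjusted p = 5.97e-05). The ammonia channel Rhcg fell to 1200 ± 313 CPM after IRI, against 2414 ± 159.99 CPM in sham (SD, n = 3 each; log2 -1.01 ± 0.19, adjusted p = 0.00283), and the alkali-sensing receptor Insrr fell (log2 -1.62 ± 0.34, adjusted p = 0.00835). Insrr was also among 4 markers of the type B kind of intercalated cell, of which 2 were called lower, against 21.2% of all genes tested, and 0 higher. With the replicate block, 3 were lower and 1 was higher. The part of these cells in the fall of Insrr was not tested. Carboxylases use bicarbonate as a substrate, those of mitochondria sharing their compartment with Car5b. Of 7 tested, 4 were lower, against 21.2% of all genes tested, and 3 were not called (median log2 -0.66). The lower genes were the acetyl-CoA carboxylase Acacb (log2 -0.87 ± 0.14, adjusted p = 0.00104), both subunits of methylcrotonyl-CoA carboxylase, Mccc1 (log2 -0.69 ± 0.10, adjusted p = 0.000603) and Mccc2 (log2 -0.79 ± 0.11, adjusted p = 0.000496), and Pcca of propionyl-CoA carboxylase (log2 -0.32 ± 0.11, adjusted p = 0.0351). Pcca lost its call without IRI replicate 1, IRI replicate 2 or sham replicate 3 (adjusted p = 0.0787, 0.0873 and 0.103). Pyruvate carboxylase, Pcx in the table, stood at 31.3 ± 7.92 CPM after IRI and 31.3 ± 3.19 CPM in sham, and was picked after its values were seen.

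**Figure D4:**
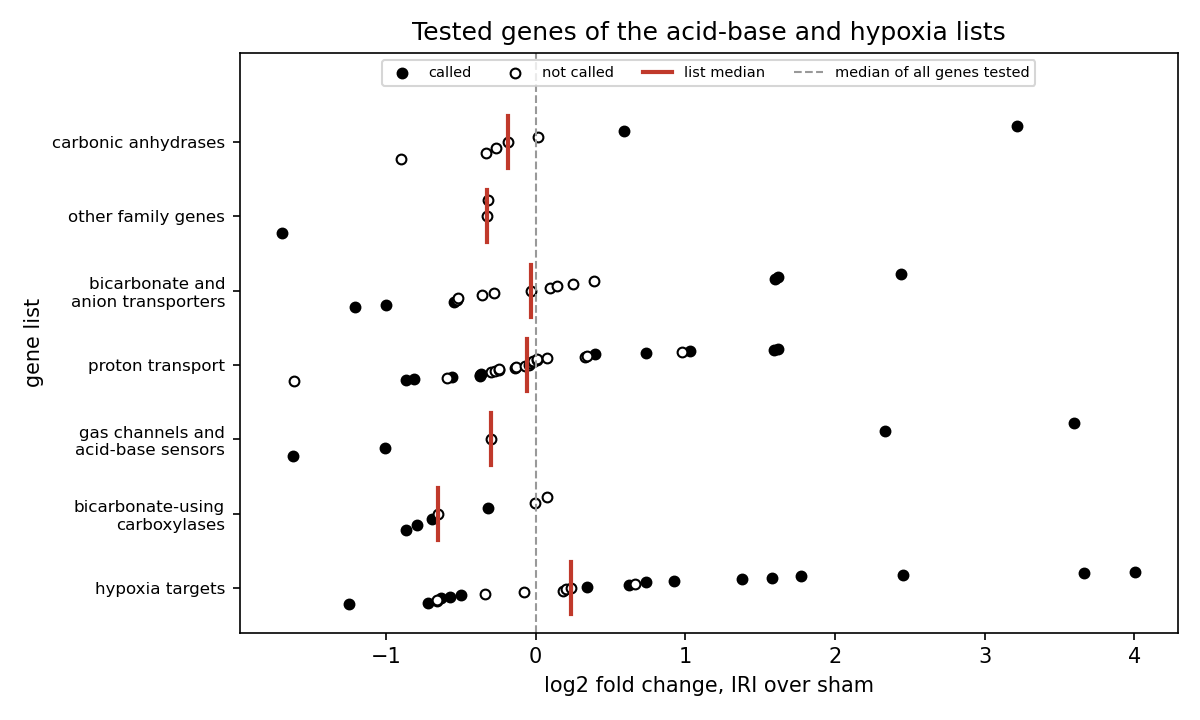
Fitted log2 fold changes (IRI over sham, horizontal axis) of the tested genes of 7 lists, filled where called, with the median of each list in red and that of all genes tested dashed. The carbonic anhydrases had a median of -0.19, with Car13 alone to the far right, while the carboxylases had 4 called genes, all left of 0.

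By the root mean square difference of log2 CPM over the 6 libraries, each gene centred on its own mean, the genes most like Car5b were Acsl1 (0.0266), 2310035C23Rik (0.0421) and Spsb2 (0.0432), with log2 fold changes of 0.55, 0.55 and 0.62. Car13 had too low a level for this comparison.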

How the data were processed

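RNA of 3 IRI and 3 sham libraries was sequenced. The authors' deposited read counts per gene are whole numbers, and the deposited RPKM divide by gene length and by effective library size, 0.917 to 1.09 times the reads in genes. The submitters' processing notes name STAR, HTSeq, edgeR and mm9, with no versions. Reads in genes were 49.1% to 50.7% of those recorded. Rows that name no gene were left out. They held reads not uniquely aligned (39.9% to 42.4%), reads in no gene (6.45% to 7.81%) and reads ambiguous between genes (1.58% to 1.73%). No library was a repeat of another (chi-square over its degrees of freedom was 16.9 to 46.3 within groups).

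Counts were tested with edgeR 4.0.16 (R 4.3.3; quasi-likelihood, robust, TMM, filterByExpr, Benjamini-Hochberg over 13881 genes, with 14355 of 37583 at 0 everywhere); errors of log2 values are SE. DESeq2 1.42.0, limma 3.58.1, other scalings and filters, a replicate block and leaving out each library were alternatives. Same-numbered libraries deviated together (correlations 0.20, 0.13 and 0.17), so the numbers were taken as pairs in the block fit. This pairing was inferred and is not established, and the main calls are from the fit without the block. The code was tested on simulated data. It called 71 of 100 genes changed 2-fold, 100 of 100 changed 4-fold and 11 of 13719 unchanged genes. Changes of 2-fold or less can therefore be missed. Named genes were all members, up to 4 called genes of each list with the largest change, those needed to name a count of 5 or fewer, and the 3 genes closest in pattern to the called member with the largest rise at a mean log2 CPM of at least 3. Members and lists were chosen with earlier results of these data known. Promoter sequences are from RefSeq (GRCm38.p6), and gene overlaps from GENCODE M21.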

Additional observations from a re-analysis of the deposited data

How the results depend on the processing

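Car13 and Car5b were called higher under every alternative run, with each library left out in turn included (2 to 2 members higher). The count of members called lower, 0, became 1 with upper-quartile scaling, 1 with library size alone, 1 with no filter on low counts and 2 with the replicate block, and 0 to 2 with a library left out. The block changed no other call of a gene named in the text. Bicarbonate transporters called lower numbered 5 with upper-quartile scaling, 5 with library size alone, 6 with the block and 1 to 5 with a library left out. Proton transport genes called lower numbered 14 with library size alone and 4 to 9 with a library left out. Among all genes tested, those called lower numbered 2948 in the main fit and 3789 with upper-quartile scaling. They numbered 4337 with library size alone, 3095 with the block and 2295 to 2734 with a library left out. Of the remaining family, 1 gene was called higher with no filter, and 0 to 1 lower with a library left out. The sign of Car2 changed, to log2 -0.11 with upper-quartile scaling, -0.18 with library size alone, -0.020 with no filter and -0.021 with limma on log2(RPKM + 0.1) and on log2(RPKM + 1). With a library left out, Car2 ranged from -0.11 to 0.073, Car8 from -0.77 to 0.083 and Car15 from -0.64 to 0.024, and Car13 held place 4 to 5 after IRI. The cause was not tested. Upper-quartile scaling moved the median of all genes to -0.12 and library size alone to -0.20 on the log2 scale, and the share of calls that were higher was 42.0% and 35.6%, against 53.3% with TMM. Over the fold changes of the tested members and of the other genes that were refitted under each alternative, which do not include Pcx, 573 values kept direction and call, 19 lost the call, 7 gained it and 9 changed sign. Low reads limit Car3, Car9 and Car14.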
